A study of Mus musculus with 18 samples.

Results

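Kupffer cells from mice given acetaminophen and an antibody to CD41 were compared with Kupffer cells from mice given acetaminophen and a control IgG antibody. The comparison takes every library of these groups, 3 of each, which makes 6 of the 18 samples of the series, and it covers 14905 genes with enough reads to test. All 6 samples came from the livers of wild-type C57BL/6J mice. Per the labels, each group received acetaminophen (APAP) and differed in the antibody given. The other 12 samples follow Kupffer cells over time after acetaminophen without an antibody, and the 0 h and 3 h samples among them, 3 of each, are used here for 1 comparison. The labels used here do not give the age or sex of the mice, the doses, the time between acetaminophen and collection in the antibody groups, or whether a library came from 1 animal or from pooled animals. The p-values below therefore measure the spread between these libraries, some of which may be technical.

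CD41 is integrin alpha IIb, encoded by Itga2b, which pairs with integrin beta 3 on platelets and megakaryocytes to form the fibrinogen receptor. Antibodies to CD41 are used in mice to deplete circulating platelets. Kupffer cells are the resident macrophages of the liver sinusoids, where they clear particles from the portal blood and take part in the response to hepatocyte death. Acetaminophen overdose kills hepatocytes around the central veins through a reactive metabolite made by cytochrome P450 enzymes. The title of the series names the transfer of aldolase from platelets to Kupffer cells in extracellular vesicles and a change in Kupffer cell metabolism, so the glycolysis genes and the inflammatory genes are described here beside the genes that passed the test. A panel of 25 genes was chosen for this question. It held aldolases, platelet and Kupffer cell genes, cytokines, glycolysis genes, Hif1a and Hmox1.

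The raw count totals of the 6 libraries lay between 28017439 and 38382509, levels are given as CPM, the reads of a gene scaled to a common library total with TMM factors, and differences are log2 anti-CD41 minus IgG. All 20 Kupffer cell markers had enough reads to test, with Clec4f, a lectin receptor of these cells, at 875, 1527 and 1411 CPM in the IgG libraries and 1140.5, 2587 and 1939 CPM in the anti-CD41 libraries. Transcripts of other liver cells were present too: the 20 Kupffer cell markers summed to 10817 to 16794 CPM and the sinusoidal endothelial markers to 7950.1 to 22222 CPM. The endothelial sum was the larger in all 3 anti-CD41 libraries and in IgG replicate 3, and the smaller in IgG replicates 1 and 2. Cdh5 was in both lists. On the first principal component, which held 42.28% of the variance, the 3 IgG libraries lay on 1 side and the 3 anti-CD41 libraries on the other. The split was not wide: anti-CD41 replicate 1, at 5.1, lay nearer to IgG replicate 2 at -14.5 than to anti-CD41 replicates 2 and 3 at 59.8 and 41.0. IgG replicate 3 stood apart from its group, with 6495 CPM over the neutrophil markers against 1529 and 1326 CPM in IgG replicates 1 and 2. Itga2b, the gene of the antibody's target, was at 3.81, 4.56 and 20.7 CPM in the IgG libraries and 13.3, 20.3 and 20.8 CPM in the anti-CD41 libraries, with a log2 difference of 0.90 ± 0.63 (SE) and an adjusted p of 0.473. The difference was 2.11 without IgG replicate 3 (adjusted p = 0.132) and 1.90 by limma voom with library weights (adjusted p = 0.0376). Platelet numbers were not analysed here.

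With edgeR's quasi-likelihood test and an adjusted p under 0.05, 11 of the 14905 genes were called (0.0738%), and the groups of all 11 did not overlap. The 10 that rose (0.0671% of the genes tested) were Plvap, Cdh13, Pcdh17, Pla2r1, Masp1, Bgn, Cyp26b1, Ackr4, Dbp and AU021092. The 1 that fell (0.00671%) was Gdf15. Without adjustment, 1427 genes were higher and 1330 lower at a p under 0.05. The unadjusted counts of the lists below stand beside these, out of the 14905 genes tested. The groups did not overlap for 3727 genes (25.0%), of which 1897 were higher in anti-CD41 (12.7%) and 1830 lower (12.3%).

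The number of calls depended on the tool and on single libraries, while the 11 genes kept their direction throughout. DESeq2 called 1065 of the 14120 genes it gave an adjusted p (7.54%), 621 higher (4.40%) and 444 lower (3.14%), with all 11 among them, and limma voom with library weights called 1089, also with all 11. The shares of 4.40% and 3.14% are the background for the DESeq2 counts of the lists below. With edgeR, all 11 stayed called without anti-CD41 replicate 1, and Plvap, Gdf15 and Cyp26b1 stayed called without IgG replicate 3. None of the 11 stayed called by edgeR when IgG replicate 1, IgG replicate 2, anti-CD41 replicate 2 or anti-CD41 replicate 3 was left out, where 2435, 2688, 1308 and 1435 genes had an unadjusted p under 0.05. None of the 25 panel genes was called by edgeR. Of these genes, 14 had an unadjusted p under 0.05, 12 were lower and 0 higher without overlap. DESeq2 called 5 of them. These were Aldoa, Pkm, Ccl2, Tnf and Hmox1, all lower with anti-CD41.

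**Figure D1:**
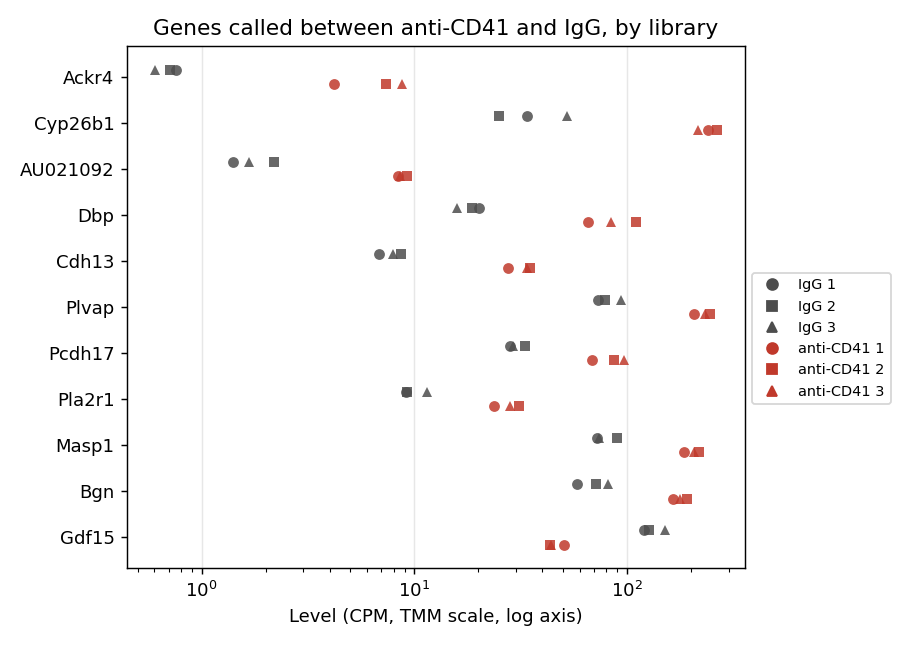
Level of each of the 11 called genes in each library, in CPM on a log axis, with IgG in grey and anti-CD41 in red and 1 marker shape per replicate number. In every row the 3 anti-CD41 points lie on 1 side of the 3 IgG points, to the left for Gdf15 and to the right for the other 10 genes.

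Gdf15 encodes a stress-induced cytokine of the TGF-beta superfamily that signals to the hindbrain through GFRAL. It was at 119.9, 127 and 150.4 CPM in the IgG libraries and 50.4, 43.4 and 43.8 CPM in the anti-CD41 libraries. Every anti-CD41 library lay below every IgG library, the levels were 2.89-fold lower, and the log2 difference was -1.53 ± 0.13 (SE), with an adjusted p of 0.0298 by edgeR. The gene (ENSMUSG00000038508) lies at chr8:70629393-70632456 on the minus strand of GRCm38, with no other annotated gene over it. Gdf15 is a target of the integrated stress response, in which ATF4 and its partners act on amino acid and redox genes. Of the 15 genes of that list, Gdf15 was the 1 called. In the list 8 were lower and 0 higher without overlap, beside 12.3% and 12.7% of all genes. The list's median log2 difference was -0.38, beside 0.01 over all genes tested.

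Other members of the stress list, picked after their values were seen, did not pass the test. Slc3a2, the heavy chain of amino acid transporters, was at 472, 468 and 499 CPM in the IgG libraries and 370.0, 365 and 374 CPM in the anti-CD41 libraries. Chac1, a glutathione-degrading enzyme, was at 4.71, 4.98 and 12.8 CPM in the IgG libraries and 2.24, 2.41 and 3.08 CPM in the anti-CD41 libraries. Both had groups that did not overlap, with log2 differences of -0.38 ± 0.10 (SE) with an adjusted p of 0.161 and -1.54 ± 0.43 (SE) with an adjusted p of 0.170, and for Chac1 IgG replicate 3 was far above the other libraries (log2 difference -0.91 without it). Cebpb, a bZIP factor that dimerises with ATF4, was at 990.5, 789.7 and 1534 CPM in the IgG libraries and 695, 441 and 526 CPM in the anti-CD41 libraries. Atf4 itself was at 224, 211 and 311 CPM in the IgG libraries and 193, 166 and 174 CPM in the anti-CD41 libraries.

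The promoters of Gdf15, the called gene of this list, and Chac1, the uncalled gene with which it can be compared, are shown because a composite C/EBP-ATF element is the known binding site of ATF4 and its partners. They were read from RefSeq on GRCm38.p6 as 250 bases before to 50 after the annotated start, 5′ to 3′ on the gene's strand, Gdf15 at chr8:70632407-70632706 (minus strand) and Chac1 at chr2:119350992-119351291 (plus strand). The element was searched as TGATGNAA on both strands, which 3.97% of the 32851 promoters hold, and capitals mark a match.
Gdf15: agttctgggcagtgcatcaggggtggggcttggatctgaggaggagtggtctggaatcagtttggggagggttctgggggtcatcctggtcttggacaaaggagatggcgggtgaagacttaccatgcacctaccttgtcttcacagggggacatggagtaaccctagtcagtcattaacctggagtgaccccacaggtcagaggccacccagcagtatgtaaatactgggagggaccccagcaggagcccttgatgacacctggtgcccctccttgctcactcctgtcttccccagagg
Chac1: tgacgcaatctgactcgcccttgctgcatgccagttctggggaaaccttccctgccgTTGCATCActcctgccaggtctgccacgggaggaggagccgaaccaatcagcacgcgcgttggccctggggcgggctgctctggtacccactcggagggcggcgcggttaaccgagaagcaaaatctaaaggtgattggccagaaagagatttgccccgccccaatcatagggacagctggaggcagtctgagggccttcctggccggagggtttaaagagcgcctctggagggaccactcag
Chac1 held 1 match, on the opposite strand as printed. Gdf15 held none in this window, which says only that these letters are not in it. It had 2 promoters listed, of which 1 is shown.

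Plvap, Cdh13, Pcdh17 and Bgn encode proteins of the cell surface or of the matrix around cells. Plvap, the protein of the diaphragms of fenestrated and caveolar endothelium, was at 73.0, 78.7 and 93.3 CPM in the IgG libraries and 205, 245 and 233 CPM in the anti-CD41 libraries. Levels in anti-CD41 were 2.79-fold those in IgG, with no overlap (log2 difference 1.48 ± 0.13 (SE), adjusted p = 0.0298, edgeR). Cdh13, T-cadherin, a GPI-anchored receptor for adiponectin, rose 4.12-fold from 6.83, 8.64 and 7.92 CPM to 27.6, 35.1 and 33.8 CPM (log2 difference 2.04 ± 0.16 (SE), adjusted p = 0.0298, edgeR). Plvap lies at chr8:71497765-71511752 on the minus strand and Cdh13 at chr8:118283733-119324921 on the plus strand. Pcdh17, a protocadherin of the cell surface, was at 28.1, 33.3 and 29.2 CPM in the IgG libraries and 68.2, 86.9 and 97.0 CPM in the anti-CD41 libraries, all above the IgG libraries (log2 difference 1.48 ± 0.15 (SE), adjusted p = 0.0441, edgeR). Bgn, the extracellular matrix proteoglycan biglycan, was at 58.2, 71.1 and 81.7 CPM in the IgG libraries and 164, 190.4 and 177 CPM in the anti-CD41 libraries and also separated the groups (log2 difference 1.33 ± 0.14 (SE), adjusted p = 0.0441, edgeR). Pcdh17 lies at chr14:84443563-84539002 and Bgn at chrX:73483602-73495933, both on the plus strand.

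Masp1, Cyp26b1, Pla2r1 and Ackr4 were the called genes whose products cut, break down or bind another molecule. Masp1, a serine protease that starts the lectin pathway of complement, was at 72.3, 89.3 and 73.6 CPM in the IgG libraries and 186, 217 and 205 CPM in the anti-CD41 libraries, with no overlap and a log2 difference of 1.37 ± 0.12 (SE) (adjusted p = 0.0298, edgeR). Cyp26b1, which breaks down retinoic acid, was at 34.0, 25.0 and 52.0 CPM in the IgG libraries and 241, 264 and 215 CPM in the anti-CD41 libraries. It was 6.49-fold higher, and its lowest anti-CD41 library lay far above its highest IgG library (log2 difference 2.70 ± 0.27 (SE), adjusted p = 0.0441, edgeR). Pla2r1, the receptor of secreted phospholipase A2, was at 9.17, 9.29 and 11.5 CPM in the IgG libraries and 23.8, 30.9 and 28.1 CPM in the anti-CD41 libraries, all above IgG (log2 difference 1.47 ± 0.16 (SE), adjusted p = 0.0441, edgeR). Ackr4, a scavenger of the chemokines CCL19, CCL21 and CCL25, was at 0.755, 0.712 and 0.605 CPM in the IgG libraries and 4.21, 7.38 and 8.77 CPM in the anti-CD41 libraries. These are low levels, and Ackr4 had the largest difference of the called genes, 3.29 ± 0.36 (SE) on the log2 scale or 9.80-fold (adjusted p = 0.0441, edgeR). Masp1 lies at chr16:23449417-23520815, Cyp26b1 at chr6:84571414-84593908, Pla2r1 at chr2:60417543-60553308 and Ackr4 at chr9:104084157-104126933, all on the minus strand.

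AU021092 (ENSMUSG00000051669, chr16:5211823-5222299, minus strand), for which no role is given here, was at 1.40, 2.20 and 1.66 CPM in the IgG libraries and 8.38, 9.22 and 8.54 CPM in the anti-CD41 libraries, again without overlap (log2 difference 2.31 ± 0.24 (SE), adjusted p = 0.0441, edgeR). Bgn, Pla2r1 and Ackr4 were not called when DESeq2 size factors replaced TMM within edgeR, with adjusted p of 0.0571, 0.0571 and 0.0513. Whether the authors' counting used strand is not given in the sources used here, so genes that overlap a called gene were looked up. Ackr4 lies over Acad11, Dbp over Sphk2, Masp1 over Rtp4 and Plvap over Gtpbp3, each on the other strand. None of these partners was called by edgeR, and their log2 differences were 0.31 ± 0.22 (SE) for Acad11, -0.07 ± 0.11 for Sphk2, -0.07 ± 0.28 for Rtp4 and -0.23 ± 0.14 for Gtpbp3.

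Endothelial marker genes had mostly positive differences, 17 of 18. None of the 18 sinusoidal endothelial markers tested was called by edgeR, and 14 were higher at an unadjusted p under 0.05. DESeq2 called 11 higher, beside 4.40% of all genes it tested. The groups did not overlap for 13 higher and 0 lower markers, beside 12.7% and 12.3% of all genes. The list's median was 0.85 and its range -0.44 to 1.67, so that Plvap (1.48) lay within that range and Cdh13 (2.04) above it. The list summed to 7950.1, 12509.7 and 14910.5 CPM in the IgG libraries and 17103, 22094 and 22222 CPM in the anti-CD41 libraries, and no anti-CD41 library overlapped with IgG. In these bulk samples, more cells of a type and more RNA per cell cannot be told apart, and the part of the endothelial markers in the rise of Plvap, Cdh13, Pcdh17 and the other called genes was not tested.

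Among the endothelial markers, those with the smallest p are given as examples chosen after their values were seen. Kdr, the VEGF receptor that drives vessel growth, was at 543, 837 and 657 CPM in the IgG libraries and 1218, 1765 and 1743 CPM in the anti-CD41 libraries (log2 difference 1.21 ± 0.22 (SE), adjusted p = 0.129). Stab2, a hyaluronan scavenger receptor of the sinusoid, was at 797, 1163 and 1341 CPM in the IgG libraries and 1830.5, 2309.6 and 2493 CPM in the anti-CD41 libraries (log2 difference 1.01 ± 0.23 (SE), adjusted p = 0.144). Vwf, the platelet-tethering protein von Willebrand factor, was at 18.7, 35.8 and 37.5 CPM in the IgG libraries and 66.3, 114 and 111 CPM in the anti-CD41 libraries (log2 difference 1.67 ± 0.31 (SE), adjusted p = 0.129). In all 3 every anti-CD41 library was above every IgG library. Lyve1, another hyaluronan receptor, was at 171, 416 and 837 CPM in the IgG libraries and 328, 329 and 391 CPM in the anti-CD41 libraries, with overlap and IgG replicate 3 the highest (log2 difference -0.44 ± 0.49 (SE), adjusted p = 0.661). Without IgG replicate 3 its difference turned positive, at 0.25.

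The Wnt and angiocrine list holds signals by which sinusoidal endothelium instructs hepatocytes, together with their receptors on vessels. Of 17 tested, none was called by edgeR, and 10 were higher and 0 lower at an unadjusted p under 0.05. DESeq2 called 6 higher, beside 4.40% of all genes it tested. Without overlap 10 were higher, beside 12.7% of all genes, and the median was 0.91. Wnt9b, an endothelial Wnt ligand that sustains zonation around the central vein, was at 0.503, 1.59 and 1.57 CPM in the IgG libraries and 5.60, 11.8 and 12.2 CPM in the anti-CD41 libraries (log2 difference 3.00 ± 0.50 (SE), adjusted p = 0.129). Wnt2, the other main endothelial Wnt, was at 6.90, 12.97 and 16.3 CPM in the IgG libraries and 17.7, 27.0 and 38.8 CPM in the anti-CD41 libraries (log2 difference 1.21 ± 0.38 (SE), adjusted p = 0.190). Tek, the angiopoietin receptor, was at 108, 172 and 189 CPM in the IgG libraries and 239, 346 and 364 CPM in the anti-CD41 libraries (log2 difference 1.02 ± 0.25 (SE), adjusted p = 0.154). None of these genes overlapped between the groups. Bmp6, the endothelial signal that induces hepcidin in hepatocytes, was at 52.5, 75.9 and 77.7 CPM in the IgG libraries and 105, 136 and 137 CPM in the anti-CD41 libraries (log2 difference 0.87 ± 0.18 (SE), adjusted p = 0.137). Hamp, the hepcidin gene, was at 6.87, 15.0 and 12.1 CPM in the IgG libraries and 3.69, 5.18 and 3.61 CPM in the anti-CD41 libraries (log2 difference -1.44 ± 0.32 (SE), adjusted p = 0.143). The groups did not overlap for either, with Bmp6 higher and Hamp lower in anti-CD41.

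Aldolase splits fructose bisphosphate in glycolysis, and the aldolase gene Aldoa separated the groups. Aldoa, the form of muscle and most cells, was at 924, 815 and 913 CPM in the IgG libraries and 717, 525 and 646 CPM in the anti-CD41 libraries. All 3 anti-CD41 libraries lay below the IgG libraries, with a log2 difference of -0.49 ± 0.15 (SE) that did not pass edgeR's test (adjusted p = 0.183) and did pass DESeq2's (adjusted p = 0.0347). Aldoc, the brain form, was at 6.90, 5.18 and 3.78 CPM in the IgG libraries and 4.72, 4.94 and 3.94 CPM in the anti-CD41 libraries, with overlap between the groups (log2 difference -0.22 ± 0.27 (SE), adjusted p = 0.695, and -0.41 without IgG replicate 3). These are transcripts in the recovered cells, and aldolase protein delivered in vesicles would not be measured by them.

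Glycolysis genes as a group were lower in anti-CD41 in small steps. None of the 21 was called by edgeR, and 15 were lower and 0 higher at an unadjusted p under 0.05. DESeq2 called 6 lower and 0 higher, beside 3.14% and 4.40% of all genes it tested. The groups did not overlap for 13 lower and 0 higher genes, beside 12.3% and 12.7% of all genes. The median was -0.49, beside 0.01 over all genes, and -0.39 without IgG replicate 3. Pkm, the pyruvate kinase of the last step, was at 1858, 1687 and 2188 CPM in the IgG libraries and 1471, 1015 and 1251 CPM in the anti-CD41 libraries (log2 difference -0.62 ± 0.18 (SE), adjusted p = 0.178). Tpi1, which interconverts the triose phosphates made by aldolase, was at 252, 219.6 and 238 CPM in the IgG libraries and 179, 151 and 185 CPM in the anti-CD41 libraries (log2 difference -0.46 ± 0.12 (SE), adjusted p = 0.161). Pgk1, the first ATP-making step, was at 403, 319 and 475 CPM in the IgG libraries and 289, 204 and 252 CPM in the anti-CD41 libraries (log2 difference -0.68 ± 0.19 (SE), adjusted p = 0.166). These 3 genes had groups that did not overlap, with anti-CD41 replicate 2 the lowest library in each.

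Transport of glucose and lactate showed larger differences that leaned on 1 library. Slc2a1, the glucose transporter GLUT1, was at 86.7, 73.8 and 336 CPM in the IgG libraries and 54.2, 31.9 and 42.9 CPM in the anti-CD41 libraries (log2 difference -1.95 ± 0.59 (SE), adjusted p = 0.184). Slc16a3, the lactate exporter MCT4, was at 197, 128 and 428 CPM in the IgG libraries and 104, 40.7 and 79.1 CPM in the anti-CD41 libraries (log2 difference -1.75 ± 0.50 (SE), adjusted p = 0.173). In both, IgG replicate 3 was well above IgG replicates 1 and 2, and all IgG libraries were above all anti-CD41 libraries. Without IgG replicate 3 the log2 differences were -0.90 for Slc2a1 and -1.12 for Slc16a3. Hk2, an inducible hexokinase, was at 145, 153 and 178 CPM in the IgG libraries and 132, 112 and 121 CPM in the anti-CD41 libraries (log2 difference -0.38 ± 0.12 (SE)). Hk1, the constitutive one, was at 103, 119 and 195 CPM in the IgG libraries and 103, 126 and 132 CPM in the anti-CD41 libraries (log2 difference -0.21 ± 0.24 (SE), turning to 0.12 without IgG replicate 3). The groups were separate for Hk2 and overlapped for Hk1. Pfkfb3, which makes the activator of phosphofructokinase, was at 143, 98.1 and 206 CPM in the IgG libraries and 112, 94.5 and 95.0 CPM in the anti-CD41 libraries. Ldha, lactate dehydrogenase A, was at 609, 503 and 696 CPM in the IgG libraries and 501, 399 and 473 CPM in the anti-CD41 libraries. Their log2 differences were -0.57 ± 0.25 (SE) (adjusted p = 0.291) and -0.40 ± 0.16 (SE) (adjusted p = 0.248), with overlap for Pfkfb3 and none for Ldha. Without IgG replicate 3 they were -0.26 and -0.28. Gapdh was listed at only 4.78, 4.59 and 36.3 CPM in the IgG libraries and 4.72, 4.70 and 2.98 CPM in the anti-CD41 libraries. Gapdh, Aldoa, Tpi1, Pgk1 and Ldha have near-identical pseudogene copies and the counting rule for shared reads is not given in the sources used here, so the levels of these genes are uncertain.

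**Figure D2:**
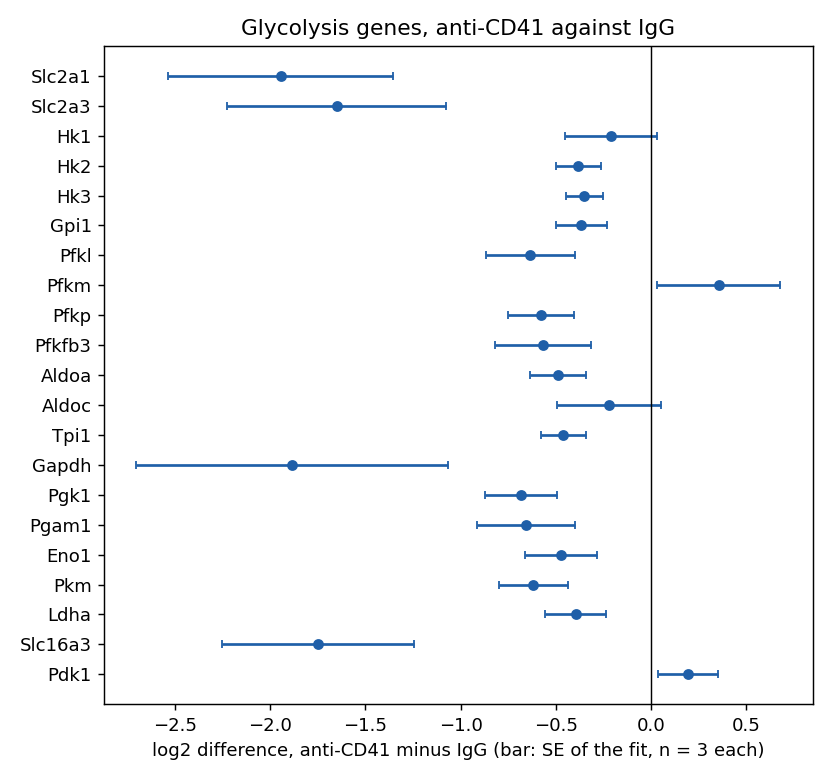
Log2 difference, anti-CD41 minus IgG, of the 21 glycolysis genes in pathway order, with bars for the SE of the edgeR fit over 3 libraries a group. Of the 21 points, 19 lie below 0, most between 0 and -0.7, with Slc2a1, Slc2a3, Slc16a3 and Gapdh further left and with wide bars.

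The neighbouring pathways of carbon metabolism differed in their spread. In the pentose phosphate pathway 3 of 7 genes were lower without overlap and none higher, beside 12.3% and 12.7% of all genes. The median was -0.32. Pgd, its second dehydrogenase, was at 531, 373 and 454 CPM in the IgG libraries and 360.2, 233 and 262 CPM in the anti-CD41 libraries (log2 difference -0.67 ± 0.20 (SE), adjusted p = 0.184). The tricarboxylic acid cycle and respiratory chain lists had medians of 0.00 and -0.01, 2 of 20 cycle genes were lower without overlap and none higher, and 1 of 28 chain genes were higher and 1 lower. No gene of these 3 lists was called by edgeR. Unadjusted, 3 pentose phosphate genes and 1 cycle gene were lower at a p under 0.05 and no chain gene was, and DESeq2 called 1 pentose phosphate gene lower and none in the other lists.

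Cytokine and chemokine genes lay lower in anti-CD41 for most of the list, without any gene passing edgeR's test. Of 25 cytokine and chemokine genes tested, 14 were lower without overlap and 0 higher, beside 12.3% and 12.7% of all genes. Unadjusted, 15 were lower at a p under 0.05. DESeq2 called 11 lower, beside 3.14% of all genes it tested, and the median was -0.95. Ccl2, the ligand that draws monocytes through CCR2, was at 93.3, 104 and 166 CPM in the IgG libraries and 57.2, 38.7 and 43.0 CPM in the anti-CD41 libraries (log2 difference -1.39 ± 0.25 (SE), adjusted p = 0.129). Tnf, a main macrophage cytokine, was at 67.8, 56.6 and 106 CPM in the IgG libraries and 35.8, 28.2 and 38.5 CPM in the anti-CD41 libraries (log2 difference -1.17 ± 0.25 (SE), adjusted p = 0.138). Both had separate groups, and IgG replicate 3 was the highest of the 6 libraries for each.

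Other chemokines with the smallest p were taken from the same list after their values were seen. Cxcl13, a B cell chemoattractant, was at 64.0, 62.3 and 43.3 CPM in the IgG libraries and 12.9, 22.8 and 25.1 CPM in the anti-CD41 libraries (log2 difference -1.48 ± 0.27 (SE), adjusted p = 0.129). Ccl3, a chemokine that draws monocytes and macrophages, was at 189, 137 and 171 CPM in the IgG libraries and 95.4, 68.5 and 98.2 CPM in the anti-CD41 libraries (log2 difference -0.93 ± 0.18 (SE), adjusted p = 0.129). For these genes IgG replicate 3 was not the highest library and the groups were separate. Il1b, the pyrogenic cytokine matured by the inflammasome, was at 574, 523 and 2313 CPM in the IgG libraries and 263, 163 and 334 CPM in the anti-CD41 libraries, where IgG replicate 3 was several times every other library (log2 difference -2.17 ± 0.62 (SE), adjusted p = 0.173, and -1.11 without that library). Il6, the acute phase cytokine, was at 3.74, 3.11 and 11.8 CPM in the IgG libraries and 2.42, 2.38 and 2.60 CPM in the anti-CD41 libraries (log2 difference -1.33 ± 0.52 (SE), adjusted p = 0.242, and -0.47 without IgG replicate 3). The anti-inflammatory Il10 was at 5.07, 5.50 and 11.1 CPM in the IgG libraries and 4.87, 2.47 and 3.87 CPM in the anti-CD41 libraries (log2 difference -0.95 ± 0.39 (SE), adjusted p = 0.259, and -0.50 without IgG replicate 3). Of the 25 list members tested, 21 had a negative and 4 a positive difference.

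Immediate early genes, transcription factors and feedback regulators induced within minutes of a signal, had negative differences throughout the list. Of the 24 tested, 19 were lower without overlap, beside 12.3% of all genes, and none was called by edgeR. Unadjusted, 20 were lower at a p under 0.05, and DESeq2 called 18 lower, beside 3.14% of all genes it tested. The median was -0.82, or -0.56 without IgG replicate 3. Egr2, a zinc finger factor, was at 53.3, 42.4 and 64.0 CPM in the IgG libraries and 26.0, 20.5 and 19.8 CPM in the anti-CD41 libraries (log2 difference -1.27 ± 0.18 (SE), adjusted p = 0.129). Atf3, a stress-induced bZIP repressor, was at 479.7, 528 and 716 CPM in the IgG libraries and 309, 196 and 274 CPM in the anti-CD41 libraries (log2 difference -1.15 ± 0.22 (SE), adjusted p = 0.129). Nr4a1, an orphan nuclear receptor, was at 1035, 893 and 1276 CPM in the IgG libraries and 659.9, 391 and 532 CPM in the anti-CD41 libraries (log2 difference -1.02 ± 0.22 (SE), adjusted p = 0.143). For these examples, chosen after their values were seen, every anti-CD41 library lay below every IgG library and anti-CD41 replicate 1 was the highest of its group. Klf2, the flow-responsive factor of endothelium, overlapped between the groups, at 236, 324 and 389 CPM in the IgG libraries and 228, 382 and 335 CPM in the anti-CD41 libraries.

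Among NF-kB subunits and feedback genes, 19 of 19 had negative differences, and 15 were lower without overlap, beside 12.3% of all genes. At an unadjusted p under 0.05, 14 were lower. DESeq2 called 5 lower, beside 3.14% of all genes it tested, and edgeR none. The median was -0.57. Nfkb2, the precursor of the p52 subunit, was at 172, 153 and 203 CPM in the IgG libraries and 132, 92.8 and 116 CPM in the anti-CD41 libraries (log2 difference -0.63 ± 0.17 (SE), adjusted p = 0.161). Tnfaip3, the deubiquitinase A20 that shuts the pathway down, was at 272, 234 and 464 CPM in the IgG libraries and 216, 132 and 199.6 CPM in the anti-CD41 libraries (log2 difference -0.82 ± 0.30 (SE), adjusted p = 0.216, and -0.47 without IgG replicate 3), highest in IgG replicate 3. Toll-like receptors and their adaptors had 5 of 15 lower without overlap, beside 12.3% of all genes, and a median of -0.34. Of 26 interferon-stimulated genes, 2 were higher and 5 lower without overlap, beside 12.7% and 12.3% of all genes, and edgeR called none. Their median was -0.20, and -0.44 without IgG replicate 3.

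**Figure D3:**
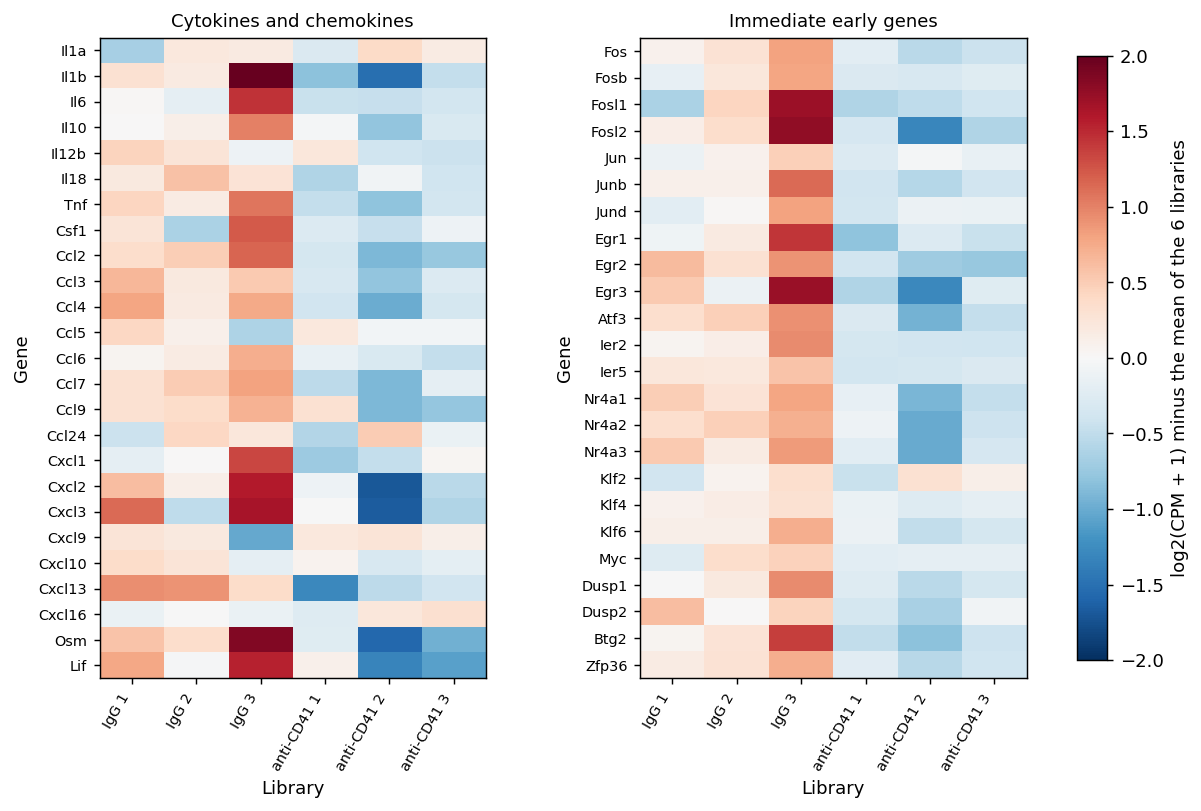
Level of each cytokine or chemokine gene (left) and immediate early gene (right) in each of the 6 libraries, as log2(CPM + 1) minus the gene's mean over the libraries, on a colour scale limited at -2 and 2. The 3 IgG columns are mostly red and the 3 anti-CD41 columns mostly blue, with the deepest red in IgG replicate 3.

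Markers of blood-derived myeloid cells had lower summed levels in the anti-CD41 libraries. Of 19 neutrophil markers tested, 12 were lower without overlap, beside 12.3% of all genes, and 13 were lower at an unadjusted p under 0.05. DESeq2 called 4 lower, beside 3.14% of all genes it tested, and edgeR none. The median was -2.53, and -1.13 without IgG replicate 3. The list summed to 1529, 1326 and 6495 CPM in the IgG libraries and 911, 405 and 761 CPM in the anti-CD41 libraries. S100a9, a calcium-binding protein abundant in neutrophils, was at 186, 124 and 935 CPM in the IgG libraries and 79.3, 31.3 and 77.9 CPM in the anti-CD41 libraries (log2 difference -2.72 ± 0.80 (SE), adjusted p = 0.178, and -1.30 without IgG replicate 3), with IgG replicate 3 far above the rest. Elane, neutrophil elastase, was at 0 in all anti-CD41 libraries and too low in IgG to be tested, and Mpo, myeloperoxidase, was at 0.216, 0.582 and 0.544 CPM in the IgG libraries and 0.303, 1.24 and 0.404 CPM in the anti-CD41 libraries. The part of neutrophil transcripts in the differences of Il1b and the other inflammatory genes was not tested.

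Monocyte-derived macrophage markers were lower as well, 10 of 18 without overlap, beside 12.3% of all genes. Of these markers, 9 were lower at an unadjusted p under 0.05. DESeq2 called 6 lower, beside 3.14% of all genes it tested, and edgeR none. The list's median was -0.81, or -1.30 without anti-CD41 replicate 1 and -0.90 without IgG replicate 3. Their sum was 20208, 18039 and 21857 CPM in the IgG libraries and 15282, 7905 and 9166 CPM in the anti-CD41 libraries, so anti-CD41 replicate 1 lay nearest to IgG. Chil3, a chitinase-like protein of monocytes and alveolar macrophages, was at 1987, 1907 and 2784 CPM in the IgG libraries and 818, 305 and 449.7 CPM in the anti-CD41 libraries (log2 difference -2.09 ± 0.37 (SE), adjusted p = 0.129). Fn1, fibronectin, was at 1682, 2201 and 3022 CPM in the IgG libraries and 1473, 890.3 and 851 CPM in the anti-CD41 libraries (log2 difference -1.10 ± 0.29 (SE), adjusted p = 0.161). Both separated the groups. Ccr2, the receptor of CCL2, did not, at 425, 475 and 539 CPM in the IgG libraries and 483, 238 and 257 CPM in the anti-CD41 libraries (log2 difference -0.56 ± 0.28 (SE), adjusted p = 0.333). The part of these cells in the lower Ccl2, Tnf and glycolysis values was not tested.

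Kupffer cell markers overlapped for nearly the whole list. Of 20, 1 was lower and 0 higher without overlap, beside 12.3% and 12.7% of all genes. None was called by edgeR, 3 were higher and 2 lower at an unadjusted p under 0.05, and DESeq2 called 1 lower. The median was 0.30. The gene lower without overlap was Spic, the factor of iron-recycling macrophages, at 81.2, 75.4 and 136 CPM in the IgG libraries and 46.2, 54.5 and 52.9 CPM in the anti-CD41 libraries (log2 difference -0.93 ± 0.23 (SE), adjusted p = 0.156, and -0.61 without IgG replicate 3). Timd4, the phosphatidylserine receptor of resident Kupffer cells, was at 135, 153 and 125 CPM in the IgG libraries and 112, 229 and 211 CPM in the anti-CD41 libraries (log2 difference 0.42 ± 0.26 (SE)). Vsig4, the complement receptor CRIg, was at 305, 548 and 433 CPM in the IgG libraries and 413, 928 and 785 CPM in the anti-CD41 libraries (log2 difference 0.72 ± 0.33 (SE)). Both were highest in anti-CD41 replicates 2 and 3. Adgre1, which encodes F4/80, was at 738, 678 and 467 CPM in the IgG libraries and 595, 825 and 929 CPM in the anti-CD41 libraries (log2 difference 0.32 ± 0.23 (SE), and 0.15 without IgG replicate 3). Marco, a scavenger receptor for bacteria, was at 2098, 1532 and 1245 CPM in the IgG libraries and 880.4, 872 and 1303 CPM in the anti-CD41 libraries (log2 difference -0.67 ± 0.25 (SE), adjusted p = 0.223) and had a negative difference, with overlap.

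Platelet and megakaryocyte transcripts had 16 positive and 4 negative differences. Of 20 tested, 4 were higher and 1 lower without overlap, beside 12.7% and 12.3% of all genes. None was called by edgeR, 1 was higher and 2 lower at an unadjusted p under 0.05, and DESeq2 called 1 higher and 1 lower. The median was 0.70, and 1.41 without IgG replicate 3. The list's sum was lower in every anti-CD41 library, at 2284, 2409.9 and 4093 CPM in the IgG libraries and 1858, 818 and 1111 CPM in the anti-CD41 libraries, and was mostly Thbs1, thrombospondin 1, which macrophages express too. Without Thbs1, left out after its values were seen, the sums overlapped, at 192, 293 and 492 CPM in the IgG libraries and 273, 390.3 and 398 CPM in the anti-CD41 libraries. Ppbp, a chemokine precursor of platelet granules, was at 0.539, 0.259 and 5.35 CPM in the IgG libraries and 2.69, 5.69 and 4.14 CPM in the anti-CD41 libraries. Pf4, platelet factor 4, was at 17.3, 22.3 and 35.3 CPM in the IgG libraries and 17.1, 13.2 and 17.6 CPM in the anti-CD41 libraries. Gp5, a subunit of the von Willebrand factor receptor, was at 0, 0 and 1.48 CPM in the IgG libraries and 1.88, 2.41 and 2.25 CPM in the anti-CD41 libraries. IgG replicates 1 and 2 were thus low for Itga2b, Ppbp and Gp5, and IgG replicate 3 was close to the anti-CD41 libraries for Itga2b and Ppbp. Itgb3, which macrophages and endothelium express too, was at 36.7, 67.3 and 207 CPM in the IgG libraries and 49.2, 42.3 and 60.4 CPM in the anti-CD41 libraries (log2 difference -1.03 ± 0.57 (SE), adjusted p = 0.380, and -0.04 without IgG replicate 3) and was highest in IgG replicate 3. Clec1b, the podoplanin receptor of platelets that Kupffer cells also express, was at 85.6, 134 and 127 CPM in the IgG libraries and 107, 177 and 171 CPM in the anti-CD41 libraries (log2 difference 0.39 ± 0.24 (SE)), and Gp1ba overlapped at 2.41, 2.26 and 3.17 CPM in the IgG libraries and 1.85, 3.65 and 2.37 CPM in the anti-CD41 libraries, with a difference whose sign turned under some alternatives.

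Hepatocyte transcripts, 25 of 25 with positive differences, had a median of 0.84, and 4 were higher without overlap, beside 12.7% of all genes. The median was 1.21 without anti-CD41 replicate 1 and 0.67 without IgG replicate 3. Unadjusted, 11 were higher at a p under 0.05. DESeq2 called 8 higher, beside 4.40% of all genes it tested, and edgeR none. The list summed to 2262, 2963 and 2533 CPM in the IgG libraries and 2119, 4689 and 4791 CPM in the anti-CD41 libraries, so anti-CD41 replicates 2 and 3 were high and anti-CD41 replicate 1 was not. Cyp2e1, the enzyme that makes the toxic acetaminophen metabolite, was at 15.5, 14.4 and 16.4 CPM in the IgG libraries and 18.0, 44.1 and 43.3 CPM in the anti-CD41 libraries (log2 difference 1.19 ± 0.33 (SE), adjusted p = 0.166). Cyp3a11, a further drug-metabolising P450, was at 7.37, 4.46 and 3.90 CPM in the IgG libraries and 7.47, 26.0 and 24.7 CPM in the anti-CD41 libraries (log2 difference 1.89 ± 0.49 (SE), adjusted p = 0.161). Stellate cell and fibroblast markers had 5 of 18 higher and 0 lower without overlap, beside 12.7% and 12.3% of all genes. They summed to only 44.1 to 119 CPM in the IgG libraries and 80.5 to 96.5 CPM in the anti-CD41 libraries. The part of either cell type in the rise of Bgn, Cyp26b1 or Masp1 was not tested.

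**Figure D4:**
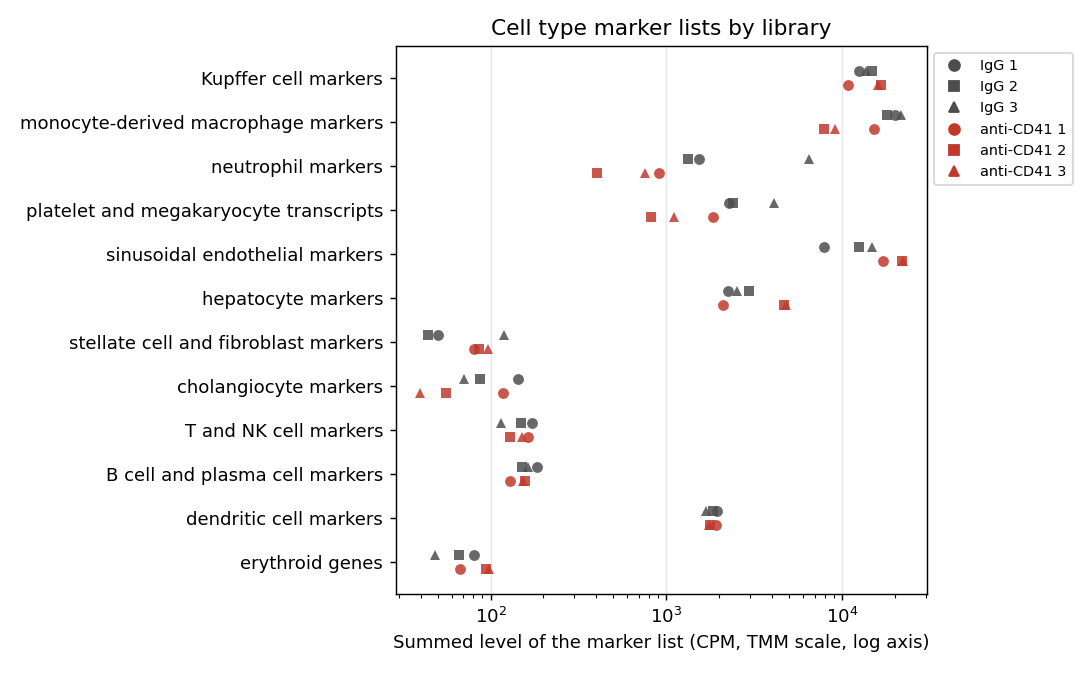
Summed level of each cell type marker list in each library, in CPM on a log axis, with IgG in grey and anti-CD41 in red and 1 marker shape per replicate number. The monocyte, neutrophil and platelet sums lie lower and the sinusoidal endothelial sum higher in all 3 anti-CD41 libraries, and the Kupffer cell sum overlaps between the groups. The platelet sum is mostly Thbs1, and without that gene it overlaps between the groups. Of the 20 platelet list genes, 16 had positive and 4 negative differences.

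The clock list held a called gene. Dbp, a PAR bZIP activator of clock output, was at 20.1, 18.6 and 15.8 CPM in the IgG libraries and 65.7, 110.0 and 84.3 CPM in the anti-CD41 libraries. Every anti-CD41 library was above every IgG library, with levels 4.77-fold those in IgG (log2 difference 2.25 ± 0.21 (SE), adjusted p = 0.0298, edgeR). Dbp (ENSMUSG00000059824) lies at chr7:45705088-45710203 on the plus strand. Per3, a period repressor, was at 5.97, 4.30 and 5.59 CPM in the IgG libraries and 16.5, 23.1 and 16.9 CPM in the anti-CD41 libraries, just short of the threshold at an adjusted p of 0.0552 (log2 difference 1.83 ± 0.21 (SE)). Tef, a relative of Dbp, was at 43.2, 37.2 and 28.1 CPM in the IgG libraries and 83.7, 114 and 87.3 CPM in the anti-CD41 libraries (log2 difference 1.40 ± 0.19 (SE), adjusted p = 0.117). Both were separate between groups without being called by edgeR.

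Of the 16 clock genes tested, 6 were higher and 3 lower without overlap, beside 12.7% and 12.3% of all genes. DESeq2 called 6 higher and 1 lower, beside 4.40% and 3.14% of all genes it tested. Nr1d1, the repressor REV-ERB alpha, was at 50.2, 89.5 and 99.9 CPM in the IgG libraries and 118, 173 and 153 CPM in the anti-CD41 libraries (log2 difference 0.89 ± 0.27 (SE), adjusted p = 0.181). Arntl, the activator BMAL1 that it represses, was at 14.2, 17.5 and 19.0 CPM in the IgG libraries and 12.3, 10.2 and 13.4 CPM in the anti-CD41 libraries (log2 difference -0.49 ± 0.17 (SE), adjusted p = 0.212). Nfil3, a repressor that competes with Dbp at D-box sites, was at 73.5, 81.8 and 139 CPM in the IgG libraries and 59.7, 25.9 and 41.1 CPM in the anti-CD41 libraries (log2 difference -1.22 ± 0.35 (SE), adjusted p = 0.173). These groups did not overlap, with Nr1d1 higher and Arntl and Nfil3 lower in anti-CD41. Per1 and Per2 overlapped, at 185, 181 and 354 CPM in the IgG libraries and 198, 144 and 169 CPM in the anti-CD41 libraries for Per1 and 10.6, 13.2 and 34.3 CPM in the IgG libraries and 27.7, 34.7 and 22.0 CPM in the anti-CD41 libraries for Per2. The labels used here give no hour of collection for the antibody groups, so the hour and the antibody cannot be told apart.

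Promoters of Dbp, Per3 and Tef are shown because clock factors bind E-boxes, searched as CACGTG (in 7.15% of the 32851 promoters), and the PAR bZIP factors bind D-boxes, searched as TTANGTAA (in 2.32%), both on both strands. The windows are those of RefSeq on GRCm38.p6, Dbp at chr7:45704997-45705296 (plus strand), Per3 at chr4:151044616-151044915 (minus strand) and Tef at chr15:81802423-81802722 (plus strand), and capitals mark the matches.
Dbp: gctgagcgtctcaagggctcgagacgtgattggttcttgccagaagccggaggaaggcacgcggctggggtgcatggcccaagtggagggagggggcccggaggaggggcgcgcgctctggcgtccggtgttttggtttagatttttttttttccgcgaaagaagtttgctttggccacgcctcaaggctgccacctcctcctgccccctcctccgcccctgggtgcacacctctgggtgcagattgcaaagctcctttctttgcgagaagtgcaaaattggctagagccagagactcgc
Per3: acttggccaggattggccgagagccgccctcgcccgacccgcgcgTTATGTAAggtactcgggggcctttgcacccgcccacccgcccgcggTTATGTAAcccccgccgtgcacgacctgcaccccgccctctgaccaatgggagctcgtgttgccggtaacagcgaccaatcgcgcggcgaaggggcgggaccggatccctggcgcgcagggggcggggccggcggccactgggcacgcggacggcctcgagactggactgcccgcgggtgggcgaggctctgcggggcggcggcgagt
Tef: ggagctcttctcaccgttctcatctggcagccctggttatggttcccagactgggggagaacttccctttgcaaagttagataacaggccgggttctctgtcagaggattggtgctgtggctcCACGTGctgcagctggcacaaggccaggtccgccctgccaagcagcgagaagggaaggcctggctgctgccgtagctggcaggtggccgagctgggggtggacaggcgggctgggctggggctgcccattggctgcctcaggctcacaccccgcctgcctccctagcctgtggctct
Per3 held 2 D-box matches and Tef 1 E-box match, and the Dbp window held neither, which says only that these letters are not in it. Part of the Dbp window lies within the gene at the position given above. Tef had 2 promoters listed, of which 1 is shown.

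NRF2 drives genes that restore redox balance, and iron and heme genes handle what macrophages take up from dying cells. Of 17 NRF2 targets, none was called by edgeR, and 11 were lower and 0 higher without overlap, beside 12.3% and 12.7% of all genes. Unadjusted, 11 were lower at a p under 0.05. DESeq2 called 6 lower, beside 3.14% of all genes it tested, and the list's median was -0.52. Txnrd1, thioredoxin reductase, was at 472, 391 and 545 CPM in the IgG libraries and 283, 238 and 252 CPM in the anti-CD41 libraries (log2 difference -0.87 ± 0.15 (SE), adjusted p = 0.129). Srxn1, sulfiredoxin, was at 96.7, 74.8 and 110.5 CPM in the IgG libraries and 56.2, 49.3 and 54.3 CPM in the anti-CD41 libraries (log2 difference -0.82 ± 0.15 (SE), adjusted p = 0.129). Hmox1, the heme oxygenase, was at 1359, 1331 and 4043 CPM in the IgG libraries and 1003, 758 and 646 CPM in the anti-CD41 libraries, where IgG replicate 3 was far above the other libraries (log2 difference -1.48 ± 0.46 (SE), adjusted p = 0.187, and -0.75 without it). Nqo1, a quinone reductase, was low and overlapped, at 5.43, 5.79 and 4.78 CPM in the IgG libraries and 3.51, 6.18 and 6.67 CPM in the anti-CD41 libraries.

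Iron and heme genes had 8 of 17 lower and 0 higher without overlap, beside 12.3% and 12.7% of all genes. DESeq2 called 7 lower, beside 3.14% of all genes it tested, and edgeR none, and 8 were lower at an unadjusted p under 0.05. Hp, haptoglobin, which binds free hemoglobin, was at 299, 268 and 501 CPM in the IgG libraries and 155, 120.3 and 172 CPM in the anti-CD41 libraries (log2 difference -1.26 ± 0.26 (SE), adjusted p = 0.137). Slc11a1, the phagosomal metal transporter, was at 728, 668 and 677 CPM in the IgG libraries and 545, 443 and 487 CPM in the anti-CD41 libraries (log2 difference -0.49 ± 0.12 (SE), adjusted p = 0.158). Slc40a1, the iron exporter ferroportin, overlapped between groups at 903, 1422 and 2009.8 CPM in the IgG libraries and 926, 1489.5 and 1193 CPM in the anti-CD41 libraries. Among p53 targets 5 of 15 were lower and 1 higher without overlap, beside 12.3% and 12.7% of all genes. Cdkn1a, the cell cycle inhibitor p21, was at 159, 167 and 291 CPM in the IgG libraries and 111, 52.3 and 73.3 CPM in the anti-CD41 libraries (log2 difference -1.38 ± 0.34 (SE), adjusted p = 0.154), with separate groups. Hypoxia targets outside glycolysis had a median of -0.28 that came to 0.02 without IgG replicate 3. Hif1a, the hypoxia factor, was at 218, 204 and 369.7 CPM in the IgG libraries and 185, 142 and 147 CPM in the anti-CD41 libraries (log2 difference -0.74 ± 0.24 (SE), adjusted p = 0.200, and -0.42 without IgG replicate 3).

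Lists with positive medians in anti-CD41 included cholesterol synthesis and uptake at 0.46 and the cell cycle at 0.23. Without IgG replicate 3 these medians were 0.36 and 0.08. In cholesterol synthesis and uptake 9 of 19 genes were higher and 0 lower without overlap, beside 12.7% and 12.3% of all genes. None was called by edgeR, 5 were higher at an unadjusted p under 0.05, and DESeq2 called 1. Hmgcs1, which makes HMG-CoA, was at 66.9, 65.7 and 33.8 CPM in the IgG libraries and 69.3, 139.8 and 99.5 CPM in the anti-CD41 libraries (log2 difference 0.89 ± 0.33 (SE), adjusted p = 0.227). In the cell cycle list 8 of 24 were higher without overlap, none lower, 4 called higher by DESeq2 and none by edgeR, with 7 higher at an unadjusted p under 0.05. Mcm6, a subunit of the replicative helicase, was at 36.2, 36.7 and 27.2 CPM in the IgG libraries and 57.7, 46.9 and 62.3 CPM in the anti-CD41 libraries (log2 difference 0.74 ± 0.16 (SE), adjusted p = 0.143). Mki67, the proliferation marker Ki-67, was at 38.0, 28.8 and 36.0 CPM in the IgG libraries and 28.3, 26.0 and 30.2 CPM in the anti-CD41 libraries (log2 difference -0.28 ± 0.14 (SE)), with overlap and a negative difference, so the helicase gene and Ki-67 were not on the same side. The 36 ribosomal protein genes all overlapped between the groups, with log2 differences of -0.24 to 0.02.

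**Figure D5:**
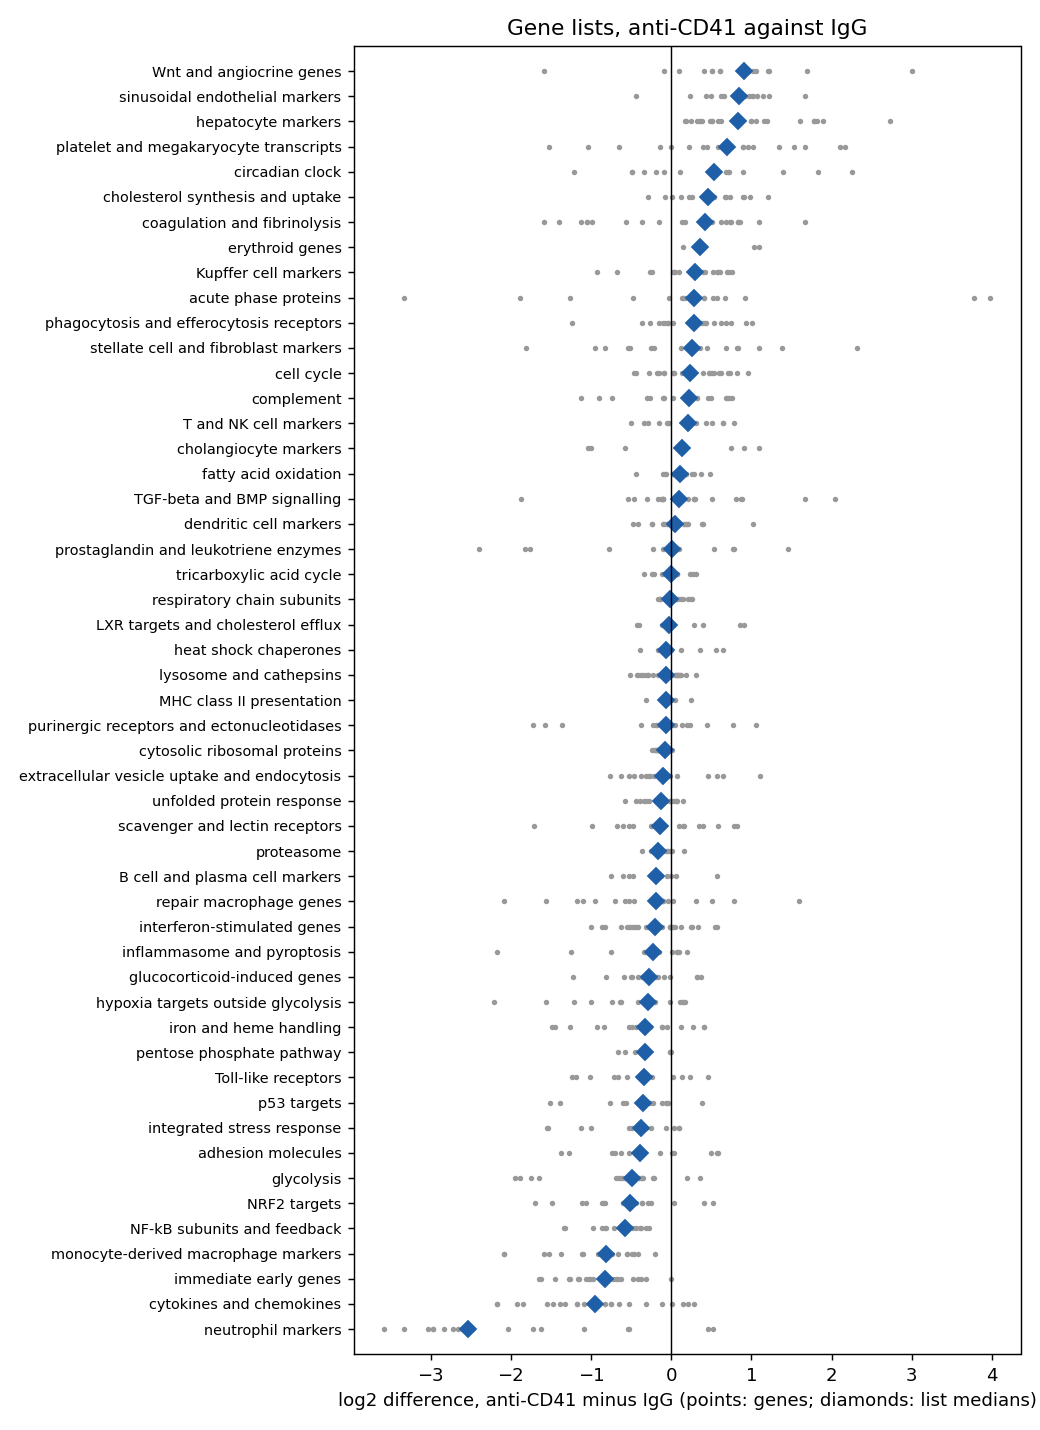
Log2 difference, anti-CD41 minus IgG, for the genes of each of the 51 lists (grey points) and the median of each list (blue diamonds), with lists ordered by median. The Wnt and angiocrine and sinusoidal endothelial lists lie at the top with medians of 0.91 and 0.85, and the neutrophil list at the bottom with -2.53.

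The response to acetaminophen itself was set beside the antibody comparison. With the same edgeR test in the separately made table of the time course, 5964 of 14163 genes were called between 3 h and 0 h (42.1%), 2702 higher (19.1%) and 3262 lower (23.0%). That comparison shares no library with the antibody groups. The titles give 0 h and 3 h, and the column headers name the 0 h libraries WT_PBS and the 3 h libraries WT_AP. All 11 genes called for anti-CD41 were tested there, and 3 were also called, in the same direction. That is 27.3% of the 11 and 0.0538% of the 5578 genes called at 3 h among those tested in both. Of all 13034 genes tested in both, 42.8% were called at 3 h. Gdf15 was at 141 ± 48.2 CPM at 0 h against 49.4 ± 3.02 CPM at 3 h (n = 3 each, SD). Its log2 difference was -1.52 ± 0.26 (SE), with an adjusted p of 0.00582 by edgeR. Pcdh17 was at 25.7 ± 1.54 CPM at 0 h against 51.6 ± 11.9 CPM at 3 h (n = 3 each, SD). Pla2r1 was at 18.6 ± 3.68 CPM at 0 h against 38.6 ± 8.35 CPM at 3 h (n = 3 each, SD). Their log2 differences were 1.01 ± 0.18 (SE) (adjusted p = 0.00626) and 1.05 ± 0.21 (SE) (adjusted p = 0.00932). The other 8 were not called at 3 h, among them Cyp26b1 with a log2 difference of -1.40 ± 0.65 (SE) (adjusted p = 0.121) and Dbp with -0.76 ± 0.27 (SE) (adjusted p = 0.0580), both negative there and positive in anti-CD41.

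When DESeq2 was used in both tables, 472 genes were called in both, which is 48.7% of the 970 called for anti-CD41 and 7.8% of the 6055 called at 3 h among genes tested in both. Of the 15660 genes with a DESeq2 p-value in both tables, 38.7% were called at 3 h. Some of them had no adjusted p and could not be called, so 48.7% and 38.7% do not rest on like sets of genes. Of the 472 genes called in both, 194 had the same direction and 278 the opposite one. Some of the lists described above are given at 3 h, where edgeR called 19.1% of all genes higher and 23.0% lower. Of 21 glycolysis genes, 5 were called higher and 7 lower by edgeR, with a median of 0.06. The log2 differences were -1.41 ± 0.24 (SE) for Tpi1 and 1.45 ± 0.28 (SE) for Slc2a3. Of 26 cytokine and chemokine genes, 9 were called higher and 3 lower, with a median of 0.57. The log2 differences were 2.43 ± 0.42 (SE) for Il6, 3.01 ± 0.57 (SE) for Il10 and -0.75 ± 0.21 (SE) for Ccl2. The respiratory chain list, with a median of -0.01 between the antibody groups, had 26 of 28 genes called lower at 3 h, with a median of -0.76.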

How the data were processed

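RNA sequencing libraries of mouse Kupffer cells were used as the authors deposited them, as a table of raw read counts per gene for the antibody groups and a table of expected counts for 0 h and 3 h. HISAT2 and GRCm38 are named in the submitters' processing notes; the counting tool, its annotation and its use of strand are not stated in the sources at hand. Between 35.3% and 36.1% of the deposited expected counts were not whole and were rounded. Of 24781 gene identifiers, 22022 were found in GENCODE M21, which gave positions on GRCm38; 27 symbols that a spreadsheet had turned into dates were restored through the identifiers. No sample columns were left unmatched in the tables used.

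Counts were tested in R 4.3.3 with edgeR 4.0.16 (TMM, filterByExpr with a minimum count of 10, quasi-likelihood test, two-sided), and p-values were adjusted by Benjamini-Hochberg over all genes tested, with a threshold of 0.05. DESeq2 1.42.0 and limma 3.58.1 (voom with library weights) were alternatives, beside DESeq2 size factors within edgeR, other expression filters, the replicate number as a block and each library left out. The scripts were tested on simulated data. The common biological coefficient of variation was 0.267. Replicate pairs were checked as possible duplicates, and the closest pair had a chi-square of 15.8 per degree of freedom. The gene lists were chosen with earlier results of these data known; a list is described by counts and medians, with no test of its own. Named genes were the called genes, a panel of 25 (1 further gene is not reported here) and, in each list, called members; further list members were chosen after their values were seen. Groups overlap where any library of one lies within the range of the other. The time table of 6 h and 12 h was not used here.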

Additional observations from a re-analysis of the deposited data

How the results depend on the processing

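The alternatives that differed from edgeR in the tool, and with it in the filter, size factors or library weights, gave the most calls. Against 11 calls (10 higher, 1 lower) with edgeR, DESeq2 gave 1065 (621 higher, 444 lower), limma voom with library weights 1089 (639 and 450), of which 724 were also called by DESeq2, and the stricter filter of 5 CPM gave 5 (4 and 1). The replicate number as a block gave 384 calls (295 and 89). Same-numbered libraries correlated at 0.089, 0.174 and 0.037 in their deviations from the group means, and the other pairs at -0.147 to 0.037. The labels used here do not say whether the numbers pair the libraries, and these values do not settle it. No filter gave 16 calls and DESeq2 size factors gave 8. Leaving out 1 library gave 0 to 110 calls, 0 to 91 higher and 0 to 19 lower, the most without anti-CD41 replicate 1. Genes called both here and at 3 h numbered 3, and 472 with DESeq2 in both tables, and 0 to 49 with a library left out.

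The 11 called genes kept their sign under all 12 alternatives. The log2 difference of Gp1ba, 0.00 as reported, was -0.013 with DESeq2 and with its size factors and -0.039 with the block, and with a library left out it ran from -0.307 to 0.20. With a library left out, Aldoc ran from -0.413 to 0.018. Of the list medians, 561 moved by less than the spread between libraries and 51 by more. With 3 libraries a group, an exact permutation test of a single gene cannot go below p = 0.1, and at a few CPM, as for Ackr4 and Wnt9b, low counts widen the error. The cause of these differences was not tested.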

Other observations

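Lists not described above held further values. Of 22 phagocytosis and efferocytosis genes, 6 were higher and 1 lower without overlap, beside 12.7% and 12.3% of all genes, and DESeq2 called 4 higher and 1 lower, edgeR none, with 5 higher and 1 lower at an unadjusted p under 0.05. Gas6, a bridge between dying cells and the TAM receptors, was at 44.6, 62.7 and 66.0 CPM in the IgG libraries and 83.0, 134 and 114 CPM in the anti-CD41 libraries (log2 difference 0.93 ± 0.22 (SE), adjusted p = 0.151, edgeR). Mfge8, another bridging protein, was at 31.8, 40.8 and 53.01 CPM in the IgG libraries and 61.9, 74.8 and 74.9 CPM in the anti-CD41 libraries (log2 difference 0.75 ± 0.19 (SE), adjusted p = 0.161, edgeR). Both separated the groups, and endothelial and stellate cells of the liver also make such ligands.

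In TGF-beta and BMP signalling, 4 of 22 genes were higher and 1 lower without overlap, beside 12.7% and 12.3% of all genes. The median of 0.10 ran from -0.03 to 0.36 over the alternatives. Tgfb2, a TGF-beta ligand, was low, at 0.719, 0.550 and 0.605 CPM in the IgG libraries and 1.39, 3.22 and 3.16 CPM in the anti-CD41 libraries (log2 difference 2.05 ± 0.44 (SE), adjusted p = 0.142, edgeR). Bmp2, an endothelial inducer of hepcidin, was at 162, 298 and 283 CPM in the IgG libraries and 391.7, 481 and 492 CPM in the anti-CD41 libraries (log2 difference 0.88 ± 0.24 (SE), adjusted p = 0.163, edgeR). The acute phase genes Saa1 and Saa2, near-identical copies whose reads may be shared, were at 0.539, 0 and 0.212 CPM in the IgG libraries and 3.21, 6.72 and 1.87 CPM in the anti-CD41 libraries and at 0.575, 0 and 0 CPM in the IgG libraries and 3.03, 3.95 and 0.758 CPM in the anti-CD41 libraries, so they were nearly silent in IgG and low in anti-CD41, and neither was called by edgeR (adjusted p = 0.158 and 0.214). Thbs1, thrombospondin 1, which platelets carry and macrophages express, was at 2092, 2118 and 3604 CPM in the IgG libraries and 1586, 428 and 713 CPM in the anti-CD41 libraries (log2 difference -1.52 ± 0.48 (SE), adjusted p = 0.191, edgeR), with anti-CD41 replicate 1 nearest to IgG.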
